A study of Mus musculus with 2 samples.

Results

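The proteasome is the protease that breaks down proteins tagged with ubiquitin. Its 20S core is a barrel of outer alpha rings and inner beta rings, and only 3 kinds of beta subunit cut peptide bonds. The 19S particle caps the barrel, binds ubiquitin chains, and unfolds the substrate with a ring of ATPases. Assembly chaperones build both parts, and activators of the Psme group can take the place of the cap. In skeletal muscle the proteasome removes myofibrillar proteins during growth, repair and wasting.

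The genes described here are those of mouse whose name is Psma, Psmb, Psmc, Psmd, Psme, Psmf or Psmg followed by a number and which are annotated as protein-coding. The rule found 50 of 22028 protein-coding genes. Of these, 48 had a read and 45 had the 10 reads or more over both libraries that the tests required. Psma8 and Psmb11, core subunits restricted to testis and thymus, had no read. Psmb9, Psme2b and Psmc3ip had 1 to 9 reads and were not tested. Psmc3ip met the rule by its name alone, since it is a meiotic recombination factor and not a part of the proteasome. Another 4 genes with such names are pseudogenes, were left out by the rule, and had no reads.

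RNA was taken from the gastrocnemius, a calf muscle, of male B6CASTF1/J mice aged 25 days and sequenced in long reads. The mice are F1 animals of the C57BL/6J and CAST/EiJ strains. The series holds 1 group with 2 biological replicates, for which the labels name separate animals but a single donor record. No treatment, transgene or other genotype is labelled, and each library was made from 2 µg of RNA. Annotated genes received 1549606 reads in replicate 2 and 1215785 in replicate 1. Proteasome genes took 9051 of these reads in replicate 2 and 5077 in replicate 1, which is 0.584% and 0.418%. The muscle fibre markers Acta1, Ckm, Myh4, Tnnt3 and Ryr1 summed to 149595 CPM (replicate 2) and 166677 CPM (replicate 1). CPM are a gene's reads of every transcript class per 1000000 reads in annotated genes of that library. The level of 3 reads, which is the limit a count of 0 allows, was 1.94 CPM (replicate 2) and 2.47 CPM (replicate 1).

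No condition could be tested, since all animals belong to 1 group. Every test below sets replicate 2 against replicate 1, so it compares 2 libraries and covers counting error only. A gene was called different at an adjusted p under 0.05 in a two-sided Fisher exact test, with Benjamini-Hochberg adjustment over all 8692 genes tested. Ratios are on the log2 scale of CPM + 1, replicate 2 over replicate 1. The libraries differed widely: 43.3% of all genes tested were called, 17.0% as higher and 26.3% as lower in replicate 2. In bulk tissue, fewer cells of a type and less RNA per cell cannot be told apart.

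Some proteasome transcripts differ in a few bases at an exon end, in a junction or in where they begin. Such sites are shown first, since transcript counts given below refer to them. Gene levels sum all transcript classes and do not depend on these sites. All sequences are on mm10 (GRCm38), written 5′ to 3′ on the strand of the gene and taken from the GENCODE M21 transcripts. Psmd4, a ubiquitin receptor of the 19S particle, had reads split between 2 annotated transcripts whose exon ends differ by 9 bases. The capitals mark those bases, the junction lies on the minus strand, and the flanks span chr3:95033741-95033941.
Psmd4-201: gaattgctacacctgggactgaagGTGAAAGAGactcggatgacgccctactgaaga
Psmd4-202: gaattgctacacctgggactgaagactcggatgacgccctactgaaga

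Psmd8, a structural 19S subunit, had the unannotated splice junction with most reads among these genes. The capitals mark the bases after the junction, on the minus strand of chromosome 7, in the unannotated chain (flanks from chr7:29177174-29180300) and in the annotated transcript (flanks from chr7:29179192-29180300).
Psmd8 unannotated: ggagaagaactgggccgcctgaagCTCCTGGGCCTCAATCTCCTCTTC
Psmd8-202: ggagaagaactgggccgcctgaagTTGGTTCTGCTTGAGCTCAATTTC

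Psma7, an alpha-ring subunit, had more reads on a model that begins at an inner exon (exon 4) than full-length reads in replicate 2. The capitals mark the first bases of that shorter model on the minus strand, with flanks from chr2:180038164-180038748.
Psma7-201: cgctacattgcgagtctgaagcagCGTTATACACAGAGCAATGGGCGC

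The proteasome genes summed to 5841 CPM (replicate 2) and 4176 CPM (replicate 1), a mean of 5008 ± 1177 CPM (SD, n = 2). The 20S core gave 3060 CPM in replicate 2 and 1557 CPM in replicate 1. The 19S particle gave 2532 CPM in replicate 2 and 2421 CPM in replicate 1. The ratio of core to 19S reads was therefore 1.21 in replicate 2 and 0.643 in replicate 1. Each long read was counted once whatever its length, so levels were not divided by length. Divided by the length of the most-read annotated transcript, the ratio was 1.77 in replicate 2 and 0.995 in replicate 1. The core sum was 1.97-fold and the 19S sum 1.05-fold in replicate 2 over replicate 1, so the ratio moved with the core sum. The tested core genes have shorter transcripts, with a median of 1174 bases against 1636 bases for the 19S genes. Length is taken up below.

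**Figure D1:**
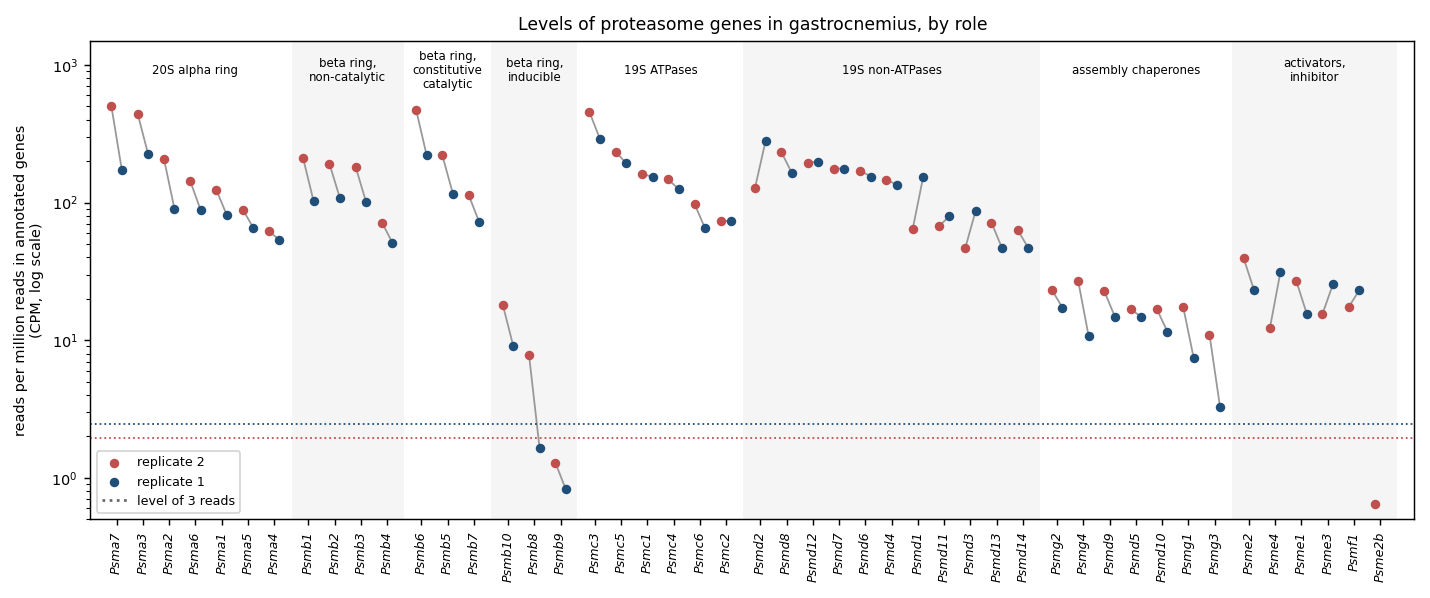
Level of each proteasome gene with a read, grouped by role, in CPM on a log scale, with replicate 2 as the left point and replicate 1 as the right point of each pair. All core subunits of the alpha and beta rings sit higher in replicate 2, the 19S non-ATPases go both ways, and the 3 inducible beta subunits and most chaperones and activators lie far below the subunits of the core and cap. Psme2b had no read in replicate 1, and dotted lines mark the level of 3 reads in each library.

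Of the 45 genes tested, 18 were higher in replicate 2, 4 were lower and 23 did not pass the test. That is to be read against the 17.0% and 26.3% of all genes given above and against the 8206 protein-coding genes, of which 43.1% were called, 15.5% higher and 27.5% lower. The median log2 ratio was 0.51 for the 45 proteasome genes, -0.27 for all genes tested and -0.32 for protein-coding genes. TMM scaling moved the median of all genes to -0.02 and that of the proteasome genes to 0.79, and called 30 higher and 4 lower. If a coefficient of variation of 0.2 between animals is assumed, edgeR's exact test called 2 higher and 1 lower. The shares of all genes above belong to the main test. Shares under TMM scaling or the fixed coefficient are not given here, so those counts have no background beside them. A fold above 2 in replicate 2 was called for Psma2, Psma7, Psmb1, Psmb6 and Psmg4. A fold above 2 in replicate 1 was called for Psmd1, Psmd2 and Psme4. Such calls made up 11.2% (higher) and 20.8% (lower) of all genes, and 9.59% and 21.8% of protein-coding genes.

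The alpha ring, which forms the gate of the barrel, summed to 1572 CPM (replicate 2) and 775 CPM (replicate 1), and 5 of its 7 subunits were called higher. Its most-read annotated transcripts have a median length of 1201 bases. Those of Psma4, Psma6 and Psma7 are below 1200 bases, where 608 of 1068 protein-coding genes were called higher. Those of Psma1 and Psma5 are from 1200 to below 1800 bases, where 286 of 1202 were called higher. Those of Psma2 and Psma3 are 1800 bases or more, where 310 of 5564 were called higher. Psma7 had 779 reads, or 503 CPM, in replicate 2 and 209 reads, or 172 CPM, in replicate 1 (log2 ratio 1.54, exact adjusted p = 3.09e-49). It was the alpha subunit with the largest ratio. Psma3 had 686 reads, or 443 CPM, in replicate 2 and 273 reads, or 224 CPM, in replicate 1 (log2 ratio 0.98, exact adjusted p = 1.25e-21). Psma2 had 323 reads, or 208 CPM, in replicate 2 and 110 reads, or 90.5 CPM, in replicate 1 (log2 ratio 1.20, exact adjusted p = 2.19e-14). Psma6 and Psma1 were called higher with ratios of 0.70 and 0.61. Psma5 and Psma4 did not pass, at ratios of 0.43 and 0.21. Psma4 was the least abundant alpha subunit, with 62.0 CPM in replicate 2 and 53.5 CPM in replicate 1. Subunits that stand in equal number in each ring thus spanned a 5.85-fold range of mean CPM. Per kb of the most-read annotated transcript they ran from 49.5 CPM per kb for Psma4 to 369 for Psma7. Both ranges count the Psma7 reads on the shorter model of 506 bases, 448 in replicate 2 and 83 in replicate 1. On annotated transcripts alone, Psma7 had 314 reads in replicate 2 and 119 in replicate 1, against 58 and 50 for Psma4.

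The 4 beta subunits without proteolytic activity summed to 654 CPM (replicate 2) and 361 CPM (replicate 1). Psmb1 had 325 reads, or 210 CPM, in replicate 2 and 124 reads, or 102 CPM, in replicate 1 (log2 ratio 1.03, exact adjusted p = 1.54e-11). Psmb2 and Psmb3 were called higher with ratios of 0.83 and 0.85. Psmb4, with 71.6 CPM in replicate 2 and 51.0 CPM in replicate 1, did not pass (exact adjusted p = 0.0690).

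The catalytic subunits come in constitutive and inducible forms: Psmb6, Psmb7 and Psmb5 hold the caspase-like, trypsin-like and chymotrypsin-like sites, and interferon-induced Psmb9, Psmb10 and Psmb8 replace them in the immunoproteasome. All 3 constitutive genes were called higher in replicate 2. Their most-read annotated transcripts are shorter than 1200 bases, as are those of 1068 protein-coding genes tested, of which 608 were called higher. Psmb6 had 733 reads, or 473 CPM, in replicate 2 and 269 reads, or 221 CPM, in replicate 1 (log2 ratio 1.09, exact adjusted p = 1.33e-27). Psmb5 had 341 reads, or 220 CPM, in replicate 2 and 141 reads, or 116 CPM, in replicate 1 (log2 ratio 0.92, exact adjusted p = 4.28e-10). Psmb7 had 176 reads, or 114 CPM, in replicate 2 and 88 reads, or 72.4 CPM, in replicate 1 (log2 ratio 0.64, exact adjusted p = 0.00192). The Psmb7 call was lost with annotated transcripts alone (ratio 0.38, exact adjusted p = 0.104) and held without incomplete and genomic reads (ratio 0.68, exact adjusted p = 0.00163). Its reads in replicate 2 and replicate 1 were 144 and 81 in the first setting, 149 and 83 in the second. Each setting divides by the reads it keeps, so ratios of all genes move with those totals. The second also keeps chains with a splice site outside the annotation, 4.28% of reads in annotated genes in replicate 2 and 17.3% in replicate 1. With reads of all classes, the constitutive subunits summed to 807 CPM (replicate 2) and 410 CPM (replicate 1).

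The inducible subunits had few reads and summed to 27.1 CPM (replicate 2) and 11.5 CPM (replicate 1). Reads of replicate 2 and replicate 1 numbered 28 and 11 for Psmb10, 12 and 2 for Psmb8, and 2 and 1 for Psmb9. Psmb10 and Psmb8 did not pass the test (exact adjusted p = 0.105 and 0.0649). Of the 12 Psmb8 reads of replicate 2, 7 belonged to a single-exon genomic model. Psmb10 made up 13.7% of the reads of Psmb10 and Psmb7 in replicate 2 (95% Clopper-Pearson interval 9.32 to 19.2%) and 11.1% in replicate 1 (5.68 to 19.01%). Psmb8 made up 3.40% of its pair with Psmb5 in replicate 2 (1.77 to 5.86%) and 1.40% in replicate 1 (0.170 to 4.96%). With annotated transcripts alone that share was 1.54% in replicate 2 and 1.46% in replicate 1. Psmb9 made up 0.272% of its pair with Psmb6 in replicate 2 (0.0330 to 0.979%) and 0.370% in replicate 1 (0.00938 to 2.05%). Over the 3 pairs the inducible share averaged 2.99 ± 0.365% (SD, n = 2), and in each pair the intervals of the libraries overlapped. The intervals cover counting error only.

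Immune cells also express the inducible subunits, so their markers stand beside these values. The 8 markers of immune cells summed to 79.4 CPM (replicate 2) and 78.1 CPM (replicate 1), of which Ptprc and Cd3e had no read in either library and Cd68 none in replicate 1. Of the 5 immune markers tested, none was called different. Their part in the inducible share was not tested. Of 10 genes of interferon response and antigen presentation, the 7 tested did not pass either, and Tap1, which lies head to head with Psmb9 on the opposite strand, had no read.

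**Figure D2:**
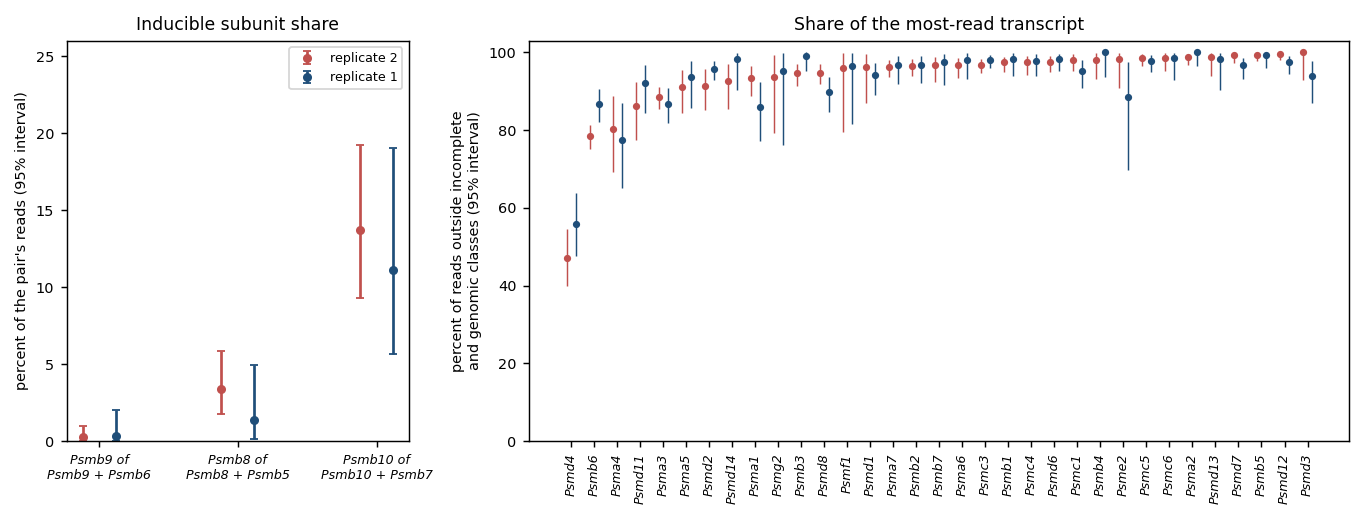
Left, percent of each catalytic pair's reads that fall on the inducible subunit; right, share of the most-read transcript in the 33 proteasome genes with enough reads; points are replicate 2 and replicate 1, and bars are 95% Clopper-Pearson intervals. Inducible subunits take 0.272 to 13.7% of their pair, and the most-read transcript holds over 90% of reads in both libraries in 25 of 33 genes, with Psmd4 lowest.

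The 6 ATPases of the 19S base, which unfold substrates, summed to 1168 CPM (replicate 2) and 899 CPM (replicate 1). Psmc3 had the highest mean CPM of all proteasome genes (372), though Psma7 and Psmb6 were above it in replicate 2. That mean counts reads of all classes. On annotated transcripts alone, Psmc3 had 394 reads in replicate 2 and 310 in replicate 1, against 702 and 262 for Psmb6. Per kb Psmb6 led with 435 CPM per kb, ahead of Psma7 with 369 and Psmc3 with 227. These values divide reads of all classes by the full annotated length, also the Psma7 reads on the shorter model and the Psmc3 reads on the last exon. Psmc3 had 703 reads, or 454 CPM, in replicate 2 and 352 reads, or 290 CPM, in replicate 1 (log2 ratio 0.65, exact adjusted p = 3.03e-11). Of these, 284 reads of replicate 2 and 26 of replicate 1 covered the last exon alone. The ratio was -0.10 with reads of annotated transcripts alone (exact adjusted p = 0.447) and 0.20 without incomplete and genomic reads (exact adjusted p = 0.119). Psmc5 had 363 reads, or 234 CPM, in replicate 2 and 234 reads, or 192 CPM, in replicate 1 (log2 ratio 0.28, exact adjusted p = 0.0442). Its ratio was 0.10 with annotated transcripts alone (exact adjusted p = 0.544) and 0.38 without incomplete and genomic reads (exact adjusted p = 0.00562). Psmc6 was called higher at a ratio of 0.58. Psmc1, Psmc4 and Psmc2 did not pass. Psmc2 had 72.9 CPM in replicate 2 and 74.0 CPM in replicate 1. The ATPases, which sit in equal number in 1 ring, thus spanned a 5.06-fold range of mean CPM. That range counts the Psmc3 reads on the last exon alone.

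The 11 non-ATPase subunits of the 19S particle summed to 1364 CPM (replicate 2) and 1522 CPM (replicate 1). They went both ways, with 2 higher, 3 lower and 6 not past the test. Psmd2 and Psmd1, the large scaffold subunits of the base, were lower in replicate 2. Psmd2 had 198 reads, or 128 CPM, in replicate 2 and 339 reads, or 279 CPM, in replicate 1 (log2 ratio -1.12, exact adjusted p = 1.13e-17). Psmd1 had 99 reads, or 63.9 CPM, in replicate 2 and 186 reads, or 153 CPM, in replicate 1 (log2 ratio -1.25, exact adjusted p = 7.41e-12). Psmd3, a lid subunit, had 46.5 CPM in replicate 2 and 87.2 CPM in replicate 1 (log2 ratio -0.89, exact adjusted p = 0.00020). Psmd8, another lid subunit, was called higher, with 234 CPM in replicate 2 and 165 CPM in replicate 1 (log2 ratio 0.50, exact adjusted p = 0.00030). Psmd13 was called higher at a ratio of 0.60, and was at 0.23 with annotated transcripts alone (exact adjusted p = 0.457) and 0.51 without incomplete and genomic reads (exact adjusted p = 0.0705). The deubiquitinase subunit Psmd14 had 63.2 CPM in replicate 2 and 46.9 CPM in replicate 1 and did not pass. Psmd7 was at 177 CPM in both libraries, and Psmd12 at 196 CPM in replicate 2 and 198 CPM in replicate 1.

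Assembly chaperones averaged 7.13 to 20.3 CPM, against 55.1 CPM or more for each constitutive subunit of the core and 19S particle, as levels not divided by length. Psmg1 to Psmg4 help to build the core, and Psmd5, Psmd9 and Psmd10 the 19S base. The 7 genes summed to 135 CPM (replicate 2) and 79.8 CPM (replicate 1). Psmg4 was the only one called, with 42 reads in replicate 2 and 13 in replicate 1 (log2 ratio 1.27, exact adjusted p = 0.00791). The lowest was Psmg3, with 17 reads in replicate 2 and 4 in replicate 1 (exact adjusted p = 0.0589), followed by Psmg1 with 27 reads in replicate 2 and 9 in replicate 1 (exact adjusted p = 0.0615). Psmd10 and Psmd5 had 26 reads each in replicate 2, against 14 and 18 in replicate 1, and did not pass (exact adjusted p = 0.392 and 0.857).

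Psme1 and Psme2 form the interferon-induced activator PA28, Psme3 the nuclear PA28 gamma, Psme4 the activator PA200, and Psmf1 encodes the inhibitor PI31. They summed to 112 CPM (replicate 2) and 118 CPM (replicate 1), together with a single Psme2b read in replicate 2. Psme2 had 39.4 CPM in replicate 2 and 23.0 CPM in replicate 1 and was called higher (log2 ratio 0.75, exact adjusted p = 0.0437). With annotated transcripts alone its ratio was 0.74 (exact adjusted p = 0.0513), and without incomplete and genomic reads 0.99 (exact adjusted p = 0.00631). Its partner Psme1 had 27.1 CPM in replicate 2 and 15.6 CPM in replicate 1 and did not pass. Psme4 had 19 reads in replicate 2 and 38 in replicate 1 (log2 ratio -1.28, exact adjusted p = 0.00265). Its full-length transcript of 6491 bases had 0 reads in replicate 2 and 13 in replicate 1. Psme3 and Psmf1 did not pass, at ratios of -0.68 and -0.38.

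Transcript length moved with these ratios. Core subunits have short transcripts, with a median of 1174 bases for the tested core genes and 1904 bases for the 19S non-ATPases. Spearman's rho between length and log2 ratio was -0.593 over the 45 proteasome genes and -0.581 over 7834 protein-coding genes, as a description across genes of the same 2 libraries. Among the 15 proteasome genes shorter than 1200 bases the median ratio was 0.83, with 9 higher and 0 lower. Of the 1068 protein-coding genes of that length, 608 were higher and 29 lower, with a median of 0.90. Among the 16 from 1200 to below 1800 bases it was 0.43, with 5 higher and 0 lower. Of 1202 such protein-coding genes, 286 were higher and 65 lower, with a median of 0.25. Among the 14 of 1800 bases or more it was -0.13, with 4 higher and 4 lower. Of 5564 such protein-coding genes, 310 were higher and 2101 lower, with a median of -0.71. Short proteasome genes thus had about the ratio of other short genes, while in both longer bins the proteasome median lay above that of protein-coding genes. Psma2 and Psma3 were above 0.9 with annotated lengths of 2911 and 2846 bases, which are lengths of the annotation and not of the reads. With annotated transcripts alone their ratios were 1.06 and 0.66. Of the 686 Psma3 reads of replicate 2, 170 were genomic. The part of length in the calls was not tested.

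**Figure D3:**
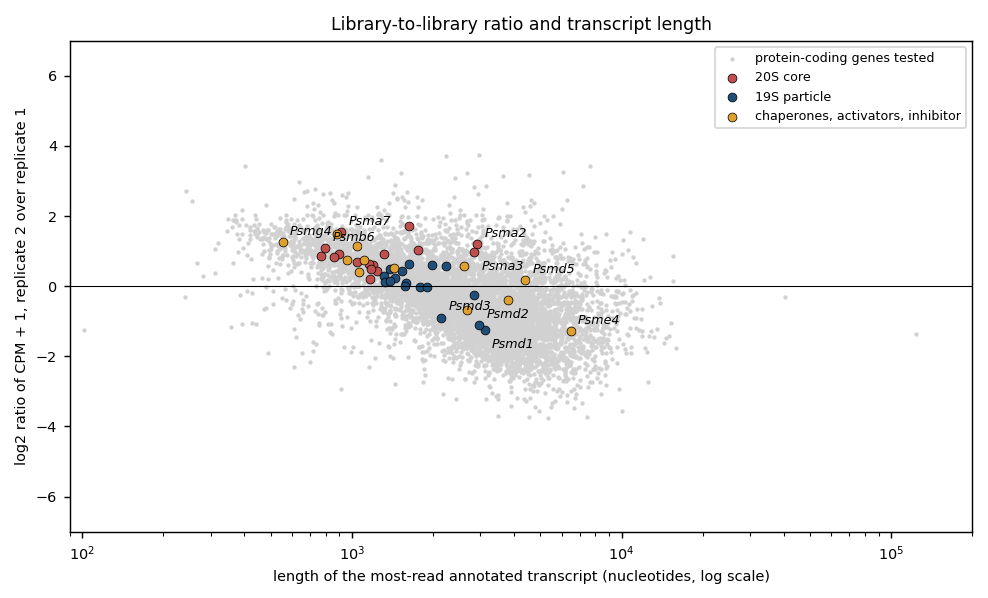
Log2 ratio of replicate 2 over replicate 1 against the length of the most-read annotated transcript (log axis), for protein-coding genes tested (grey) and proteasome genes by part. Short core genes sit above 0, and the long Psmd1, Psmd2 and Psme4 sit below it. Psma2 and Psma3 lie above 0.9, and their annotated transcripts are long. With annotated transcripts alone Psma3 was at 0.66.

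The reads of proteasome genes fell mostly on annotated transcripts. That share was 79.0% in replicate 2 (95% Clopper-Pearson interval 78.2 to 79.8%) and 87.5% in replicate 1 (86.5 to 88.4%), against 70.4% in replicate 2 and 65.5% in replicate 1 over all protein-coding genes. Reads on part of an annotated intron chain, called incomplete splice matches, took 15.8% in replicate 2 and 8.94% in replicate 1, against 16.0% and 9.40% over protein-coding genes. Chains with a splice site outside the annotation took 1.78% in replicate 2 and 1.93% in replicate 1, against 4.29% and 17.5% over protein-coding genes. This label was not always the same between libraries. An identical chain of Psmd8, and one of Psmd2, had it in replicate 2 but was labelled a new combination of known sites in replicate 1. Genomic reads, a class for unspliced or partly spliced reads, took 2.81% in replicate 2 and 0.414% in replicate 1, against 6.70% and 2.19%. Of the 254 genomic proteasome reads in replicate 2, 167 were on a model within the last exon of Psma3. Another 24 were on such a model in Psmd4 and 13 in Psmd7. These models hold no intron. The annotated share was higher in replicate 1 in 34 of the 45 genes tested. The same count over all genes is not given here, and the pooled share over protein-coding genes was higher in replicate 2. Models of a single exon held 7.63% of proteasome reads in replicate 2 and 1.71% in replicate 1, against 12.3% and 3.82% over protein-coding genes.

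**Figure D4:**
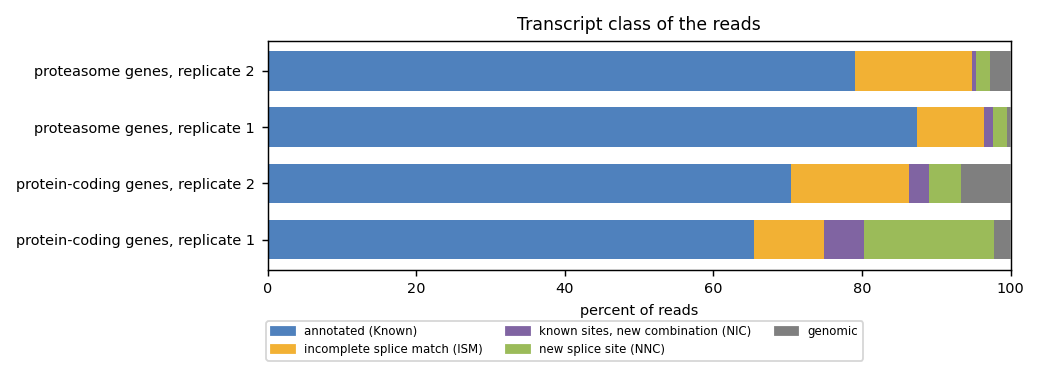
Percent of reads in each transcript class, for proteasome genes and for all protein-coding genes, in replicate 2 above replicate 1. Proteasome genes have a larger annotated share than protein-coding genes in both libraries, and replicate 2 has more incomplete and genomic reads in both sets.

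A few genes carried many of the incomplete reads. In Psma7 (chromosome 2, minus strand), the model of 4 exons and 506 bases that begins at the sequence shown above had 448 reads in replicate 2 and 83 in replicate 1. The full-length Psma7-201 of 7 exons and 914 bases had 313 reads in replicate 2 and 119 in replicate 1. With annotated transcripts alone the Psma7 ratio was 0.94 (exact adjusted p = 2.32e-09). Model ends coincide with annotated exon edges, so the true start of each read is not known. In Psma3 a genomic model of 697 bases within the last exon had 167 reads in replicate 2 and 0 in replicate 1, while a single-exon incomplete model of 1525 bases had 0 and 26. Both lie in the last exon and stop before its annotated end. In Psmd2, 40 reads of replicate 2 and 8 of replicate 1 covered the last exon alone. In Psmd1 a model of the last 3 exons had 28 reads in replicate 2 and 3 in replicate 1. A model of its first 22 exons had 2 reads in replicate 2 and 21 in replicate 1.

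Psmc2 stood apart because its annotated full-length transcript was nearly absent. Psmc2-201 has 13 exons and had 1 read in replicate 2 and 0 in replicate 1. A model of 12 exons that lacks the first, noncoding exon had 94 reads in replicate 2 and 86 in replicate 1, which is 83.2% and 95.6% of the gene's reads. It begins at chr5:21786650, at the edge of the second annotated exon, which holds the annotated start codon. RefSeq (GRCm38.p6) lists a first start of this gene at chr5:21785275 and a second at chr5:21786747, inside that exon.

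**Figure D5:**
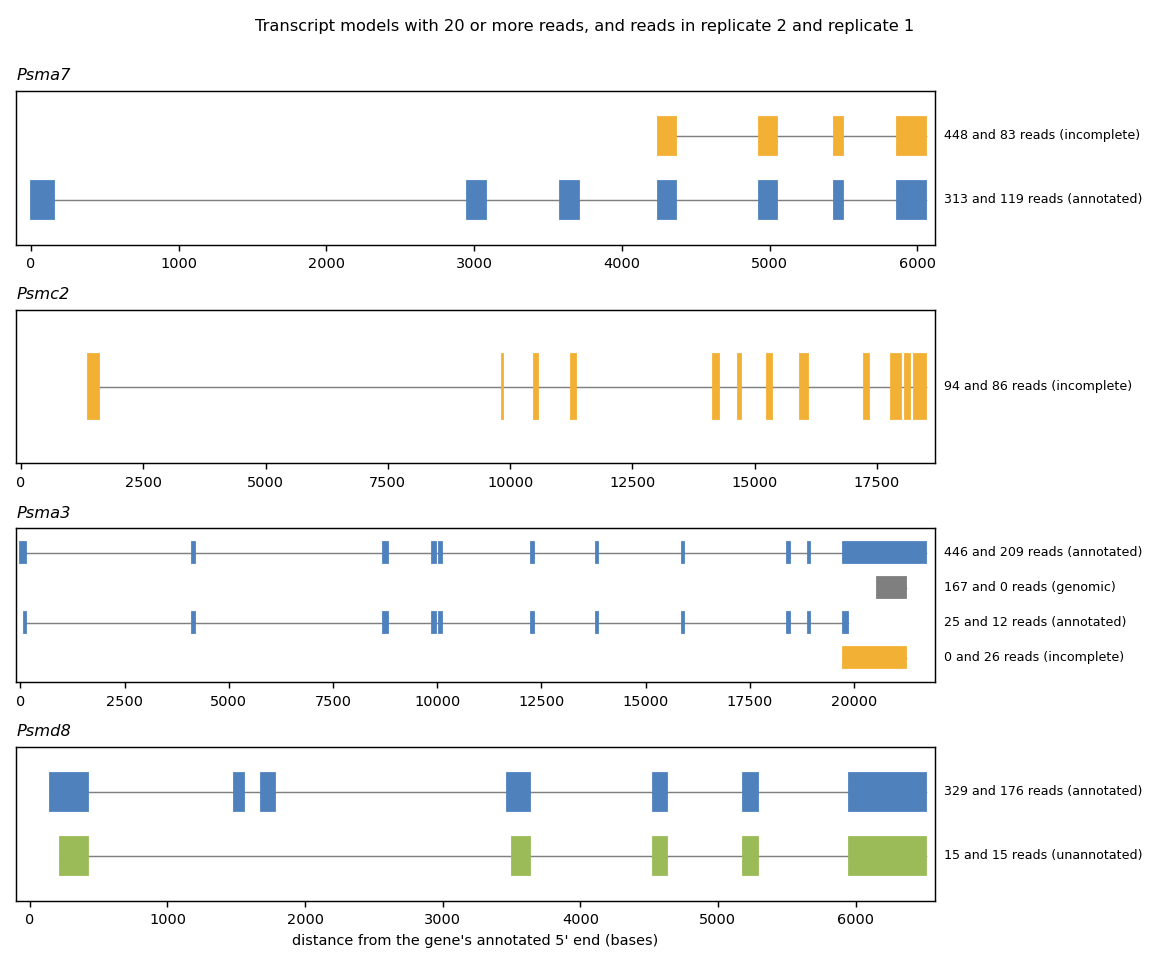
Transcript models with 20 or more reads in Psma7, Psmc2, Psma3 and Psmd8, drawn from the gene's annotated 5′ end in bases, with boxes for exons and the reads of replicate 2 and replicate 1 at the right. The 4-exon Psma7 model has 448 and 83 reads, the Psmc2 model lacks the first exon, and the unannotated Psmd8 chain skips 2 exons.

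Outside the incomplete and genomic classes, most proteasome genes used 1 transcript. In 33 genes with 20 or more such reads per library, the most-read transcript held a median of 96.6% in replicate 2 and 96.7% in replicate 1, against 90% and 90.9% over the 2793 genes of any kind tested. The share differed in 0 of the 33 genes by a two-sided Fisher exact test adjusted over those 2793 genes, of which 2.43% were called. At an unadjusted p under 0.05 there were 4: Psmb6, Psmd8, Psmb3 and Psma1. Psmb6-201 held 78.5% in replicate 2 and 86.7% in replicate 1 (exact adjusted p = 0.106). The rest was mainly Psmb6-202, annotated as a retained intron, with 148 reads in replicate 2 and 34 in replicate 1. Its single intron is also the last intron of Psmb6-201, so reads that cover only the end of the gene could be counted there.

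Among these 33 genes, Psmd4 had the lowest share of its most-read transcript. Psmd4-202, without the 9 bases shown above, had 89 reads in replicate 2 and 86 in replicate 1, or 47.1% and 55.8%. Psmd4-201, with them, had 88 reads in replicate 2 and 58 in replicate 1. The difference in share did not pass (exact adjusted p = 0.793). The 9 bases are in the coding part and keep the reading frame.

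Unannotated spliced chains were many but thin. There were 139 in replicate 2 and 122 in replicate 1, of which 106 and 108 had a single read and 23 occurred in both. Only 5 had 3 reads or more in each library, in Psmd8, Psma4 (2 chains), Psma1 and Psmd2. The Psmd8 chain had 15 reads in replicate 2 and 15 in replicate 1, which is 4.14% and 7.5% of the gene's reads. It joins the end of the first exon to a site inside exon 4 and leaves out 210 coding bases, made up of 2 whole exons and 34 bases of the next. That is 70 codons with no remainder. One Psma4 chain, with 9 reads in replicate 2 and 8 in replicate 1, carries an extra exon from chr9:54951344 to chr9:54951428 before the start codon. The other Psma4 chain had 3 reads in each library, as did the Psma1 chain, and the Psmd2 chain had 4 in replicate 2 and 3 in replicate 1.

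Of 10 proteasome genes outside the name rule, 2 were higher, 2 lower and 6 did not pass. Over all genes tested, 17.0% were called higher and 26.3% lower. Sem1, the smallest 19S subunit, had 418 CPM in replicate 2 and 173 CPM in replicate 1 (log2 ratio 1.27, exact adjusted p = 9.15e-31). Pomp, which matures the core, had 304 CPM in replicate 2 and 136 CPM in replicate 1 (log2 ratio 1.16, exact adjusted p = 1.43e-19). Ecpas, an adaptor of the 26S proteasome, had 29.0 CPM in replicate 2 and 220 CPM in replicate 1 (log2 ratio -2.88, exact adjusted p = 4.41e-51), and the proteasome-bound ligase gene Ube3c was also lower. The ubiquitin receptor Adrm1 and the deubiquitinases Usp14 and Uchl5 did not pass.

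Of all genes tested, 17.0% were called higher and 26.3% lower. Of 12 tested genes of ubiquitin supply, activation and shuttling, 1 was higher, 8 were lower and 3 did not pass. The higher one, Rps27a, which encodes ubiquitin fused to a ribosomal protein, had 240.1 CPM in replicate 2 and 112 CPM in replicate 1 (log2 ratio 1.09, exact adjusted p = 2.10e-14). Ubb, a polyubiquitin gene, was lower, with 1686 CPM in replicate 2 and 1832 CPM in replicate 1 (log2 ratio -0.12, exact adjusted p = 0.0122). The segregase gene Vcp was lower at a ratio of -1.67. Of 7 tested regulators of proteasome transcription, 4 were lower and 3 did not pass, against 26.3% of all genes tested called lower. Nfe2l1, the factor that restores proteasome genes when the proteasome is inhibited, had 92.9 CPM in replicate 2 and 268 CPM in replicate 1 (log2 ratio -1.52, exact adjusted p = 4.65e-27). Nfe2l2, Mafg and Mafk were also lower. The part of these regulators in the proteasome ratios was not tested.

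Factors of the Nfe2l group bind sites of the form TGACNNNGC. In RefSeq promoters (GRCm38.p6), this motif on either strand occurred in the 250 bases before the start in 5 of 45 windows of 42 matched proteasome genes, or 11.1%, against 10.2% of 32851 windows of all genes. Among the catalytic subunits called above, Psmb5 and Psmb6 hold it, Psmb7 was not searched, and their windows are shown with the motif in capitals (Psmb5 on the minus strand, chr14:54617996-54618245; Psmb6 on the plus strand, chr11:70525107-70525356). The other windows with a match were those of Psmc6, called higher, and of Psmd9 and Psmd12, which did not pass. A match describes letters only, and binding was not measured.
Psmb5: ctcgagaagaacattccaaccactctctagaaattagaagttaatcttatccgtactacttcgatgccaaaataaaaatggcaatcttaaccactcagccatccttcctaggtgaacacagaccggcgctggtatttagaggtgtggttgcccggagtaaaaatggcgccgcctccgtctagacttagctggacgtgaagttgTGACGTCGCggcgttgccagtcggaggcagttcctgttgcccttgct
Psmb6: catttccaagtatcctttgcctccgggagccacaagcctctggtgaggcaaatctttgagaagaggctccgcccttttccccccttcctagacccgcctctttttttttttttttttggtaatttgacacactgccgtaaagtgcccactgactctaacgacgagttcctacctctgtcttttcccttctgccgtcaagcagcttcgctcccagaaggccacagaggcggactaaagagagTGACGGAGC

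Markers of other cells also differed between the libraries, where 17.0% of all genes tested were called higher and 26.3% lower. Of 5 fibroblast markers, 4 were lower in replicate 2, and the list summed to 900 CPM (replicate 2) and 4567 CPM (replicate 1). The 5 endothelial markers summed to 58.1 CPM (replicate 2) and 110 CPM (replicate 1), with 2 lower. Among the 5 muscle fibre markers, 1 was higher, 3 were lower and 1 did not pass. Their part in the proteasome ratios was not tested.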

How the data were processed

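RNA of gastrocnemius from 1 group of mice, with 2 biological replicates, was sequenced in long reads. The deposited tables hold raw read counts per transcript model, made with TALON from reads on mm10 and the GENCODE M21 annotation, per the file headers. Each library was processed on its own. Read filters, aligner and strand setting were not given in the sources used here. Reads of genes that overlap on opposite strands (Psmd13 with Sirt3, Psme1 with Emc9, Psmb7 with Nek6, Psmc3 with Slc39a13) cannot be assigned with certainty. The length of an annotated model is that of the annotation, not of the read.

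Gene levels are reads of all classes as a share of those in annotated genes, without spike-ins. Genes reaching 10 reads in the libraries together entered two-sided Fisher exact tests (scipy 1.17.1) with Benjamini-Hochberg adjustment at 0.05, and a pseudocount of 1 CPM went into log2 ratios. Transcript shares, which leave out incomplete and genomic reads, were tested where each library kept 20 reads. Unannotated chains were matched by exact introns. Shares carry exact 95% Clopper-Pearson intervals, and reads are not independent molecules where a library was amplified. The gene test was checked on simulated counts.

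The genes, lists and tests were chosen with earlier results of these data known. Every gene that the name rule found may be named. Reads and tests are given for genes past the threshold and over 2-fold, the 6 highest and 6 lowest by mean CPM and the catalytic subunits. In genes tested for transcript shares, other annotated transcripts are named where they hold 10% or more of those reads in both libraries, and unannotated chains where they have 3 or more reads in each. Incomplete, genomic and antisense models, Psmd3, Psmd7, Psmd8, Psmd12, Psmd14 and the promoters shown were chosen for the text after their values were seen. Settings tried instead were TMM (edgeR 4.0.16) and DESeq2 1.42.0 scaling, fixed coefficients of variation, other minimums, pseudocounts and transcript classes, and each library left out. Sequences came from the M21 transcripts and RefSeq promoters. Some genes of the ubiquitin list are not reported here.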

Additional observations from a re-analysis of the deposited data

Results flagged for a closer look

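Antisense models, which lie on the strand opposite to an annotated gene and entered no level above, were found over 24 of the proteasome genes, with 205 reads in replicate 2 and 25 in replicate 1. Psmd11 and Psme4 were the genes where antisense reads passed the limit of 3 reads in both libraries. Over Psmd11, a 19S lid subunit, there were 57 antisense reads in replicate 2 and 9 in replicate 1, beside 104 and 97 reads of the gene itself. Over Psme4 there were 50 antisense reads in replicate 2 and 10 in replicate 1, beside 19 and 38 reads of the gene itself. The Psme4 reads of replicate 2 were spread over 18 models. Whether strand was used in the assignment is not given, and its part in these reads was not tested.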

How the results depend on the processing

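The count of proteasome genes higher in replicate 2 was 18, with 30 under TMM scaling and 32 under DESeq2 size factors. With edgeR's exact test it was 2 at a fixed coefficient of variation of 0.2, and 0 at 0.4. It was 13 of 43 tested with annotated transcripts alone and 21 of 43 without incomplete and genomic reads. With a minimum of 1 read it was 16 of 48, and with 50 reads 19 of 39. The count lower was 4, with 1 at a coefficient of 0.2 and 0 at 0.4, and it stayed 4 under both scalings. Shares of all genes called under these other settings are not given here, so the counts under them have no background beside them. The median log2 ratio of 0.51 was 0.79 under TMM, 0.82 under DESeq2 and 0.24 with annotated transcripts alone, where the median of all genes was -0.02, 0.00 and -0.58 in place of -0.27. Psmd12 and Psmd7, at -0.02 and 0.00, came to 0.30 and 0.32 under DESeq2 and passed the test there (exact adjusted p = 0.0458 and 0.0419), and Psmc3 came to -0.10 with annotated transcripts alone. The mean sum of the 19S non-ATPases, 1443 CPM, was 1852 CPM with annotated transcripts alone and 1573 CPM without incomplete and genomic reads, and that of activators and inhibitor, 115 CPM, was 127 CPM with annotated transcripts alone. The core to 19S ratio averaged 0.926, and 1.38 per kb. Taken as medians over genes, class shares were 89.8% annotated, 4.79% incomplete, 0.186% new combinations and 1.37% new splice sites. Unannotated chains in both libraries numbered 23, with 47 when sites may differ by 5 bp and 5 at 3 or more reads each. With either library left out, the summed level ranged from 4176 to 5841 CPM, the core to 19S ratio from 0.643 to 1.21, the annotated share from 79.0 to 87.5% and the Psmb10 share from 11.1 to 13.7%. Each class setting divides by the reads it keeps, so ratios and sums under it also carry the change in those totals. Beyond that, the cause of these shifts was not tested. No paired analysis was possible because the series has 1 group. With 1 library per animal, spread between animals is not known apart from the libraries, genes of 10 to 40 reads such as Psmb8 or Psmg3 are held to wide counting error, and reads shorter than the transcript limit every isoform share.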
